A study of Drosophila melanogaster with 2 samples.

Results

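The transcription factor E93, the product of the ecdysone-induced gene Eip93F, acts at metamorphosis, and its sites near microRNA genes were examined in whole Drosophila melanogaster prepupae, the stage between larva and pupa. MicroRNA genes were taken from the annotation of genome build dm6 as every gene whose symbol starts with mir-, which includes let-7 (listed there as mir-let7) and bantam (mir-ban), together with let-7-C, the primary transcript of the let-7 complex (listed as lncRNA:let7C). There were 263 such genes. Of these, 261 lay on the 6 chromosome arms that carry named microRNA genes, among 17683 named genes on the same arms, and the other 2, mir-10404-1 and mir-10404-2, lay on a ribosomal DNA sequence without peaks and were left out of the counts. The 261 were 260 hairpin genes, 50 to 174 bp long with a median of 92 bp, and the let-7-C transcript of 17416 bp.

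The samples were 2 biological replicates of 1 group, flies of the Eip93F-MiMIC-GFP strain in which an added GFP exon within an intron of Eip93F makes an Eip93F-GFP fusion, collected as prepupae of unknown age with males and females pooled. The fusion protein was precipitated from sonicated chromatin with an antibody against GFP and the DNA sequenced. Separate crosses or collection days are not stated for the replicates, and in chromatin of whole animals a site used in few cells and a site used weakly in many cells cannot be told apart. The authors' reproducible set held 3401 peaks, each with a summit and a signal given by their peak caller against a control. The signals ran from 89.8 to 1529 around a median of 129. Signals compare peaks only within a list, and a rank of 1 is the highest signal in a list. The lists give no read counts, so sequencing depth is unknown.

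MicroRNAs are cut from hairpins in longer primary transcripts, which are either long non-coding RNAs or the introns and exons of other genes, and they repress messenger RNAs that pair with their seed, bases 2 to 8 of the mature strand. The start site that governs a microRNA can therefore lie far from its hairpin. In flies, let-7, mir-100 and mir-125 are cut from the single let-7-C transcript, which is switched on at the onset of metamorphosis and is known for remodelling of the neuromuscular system. Others act in the hormone response, as mir-14 does on the ecdysone receptor, or in growth and cell death, as bantam and the mir-2 family do.

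The mature strands of the microRNAs that the results turn on are given first, from RefSeq on Release 6 of the genome (dm6), 5′ to 3′ with the seed in capitals. The 3 of the let-7 complex, on 2L, had 3 different seeds, and no other microRNA gene on the arms shared them.
let-7 5p: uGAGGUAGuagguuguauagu
mir-100 5p: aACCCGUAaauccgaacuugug
mir-125 5p: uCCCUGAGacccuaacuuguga
The mir-279 and mir-996 hairpins on 3R, which lie beside the strongest peak near any microRNA gene, share the seed GACUAGA with each other and with mir-286.
mir-279 3p: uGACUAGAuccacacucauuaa
mir-996 3p: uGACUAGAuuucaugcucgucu
The mir-2 hairpins in the gene spi on 2L share the seed AUCACAG, which 14 microRNA genes have in all. Of the 14, 4 had a reproducible summit within 5 kb, beside 21.1% of all microRNA genes. The 4 were these neighbouring spi hairpins, which share 2 summits, and mir-308.
mir-2a-1 and mir-2a-2 3p: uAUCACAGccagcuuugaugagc
mir-2b-2 3p: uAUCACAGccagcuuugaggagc
Others with a reproducible summit within 1 kb of the hairpin were the neighbours mir-275 and mir-305 on 2L and mir-282 on 3L, each with its own main seed, though mir-275 shares CAGGUAC with mir-306.
mir-275 3p: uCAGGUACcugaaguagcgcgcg
mir-305 5p: aUUGUACUucaucaggugcucug
mir-282 5p: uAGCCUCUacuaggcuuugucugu
Among those with a summit within 5 kb only were bantam, mir-9a and mir-276a on 3L and mir-34 on 3R, shown because their peaks are described with them.
bantam 3p: uGAGAUCAuuuugaaagcugauu
mir-9a 5p: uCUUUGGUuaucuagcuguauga
mir-276a 3p: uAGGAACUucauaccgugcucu
mir-34 5p: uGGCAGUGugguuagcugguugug

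The genome sequence at the summits is given for 3 peaks, the strongest near any microRNA gene and 2 in introns that hold or precede hairpins. The 61 bp centred on each summit are printed on the forward strand of dm6, with GATAAG, the word read by GATA factors, in capitals wherever it occurs on either strand. Within 50 bp, 9.41% of the 85 summits within 5 kb of microRNA genes held this word, against 10.03% of all summits. The strongest summits of let-7-C and of spi, not printed, do not hold it in their 61 bp. The first summit printed lies 127 bp upstream of the start of the mir-279 and mir-996 primary transcript, at 3R:29214405-29214465, and these 61 bp hold none of the 5 words searched.
mir-279 and mir-996 start: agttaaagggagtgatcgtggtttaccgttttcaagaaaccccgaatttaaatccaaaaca
The second, at 2L:18466171-18466231, is the summit in the let-7-C intron that lies nearest to the hairpins, and holds GATAAG on the reverse strand.
let-7-C intron: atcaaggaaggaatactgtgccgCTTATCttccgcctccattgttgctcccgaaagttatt
The third, at 2L:19570810-19570870 in an intron of spi, is the nearest summit to the mir-2 hairpins and holds GATAAG on the forward strand.
spi intron: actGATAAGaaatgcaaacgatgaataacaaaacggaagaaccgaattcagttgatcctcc

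A reproducible summit lay within 1 kb of 16 of the 261 microRNA genes (6.13%) and within 5 kb of 55 (21.1%). The comparison was with position alone. An interval of the same length as each gene was placed at every position of the same arm, gene-poor stretches included, and the share of placements with a summit as near was summed over the genes. This gave 12.6 genes (4.82%) within 1 kb and 44.5 (17.0%) within 5 kb, so the observed counts were above those of position at both distances. Within 1 kb this did not hold for the stronger 1700 peaks, which gave 6 genes against 6.70, and without hairpins inside a same-strand gene the count was 4 against 3.93. Many hairpins lie in clusters and share their summits, and when hairpins within 10 kb of each other were joined, 14 of 198 loci (7.07%, 95% Wilson interval 4.26 to 11.5%) had a summit within 1 kb and 42 (21.2%, 16.1 to 27.4%) within 5 kb. Both intervals, which cover counting error only, include the shares given by position. Those shares are for single genes, however, and none was computed for loci. A wider distance set the genes further apart from placements: 38.7% of the microRNA genes had a summit within 10 kb against 27.5% of placements, and 55.2% against 41.7% within 20 kb. At those distances the shares for the 5′ ends of protein-coding genes were 42.7% and 60.1%. The median microRNA gene lay 16928 bp from the nearest summit, and 117 lay more than 20 kb away.

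**Figure D1:**
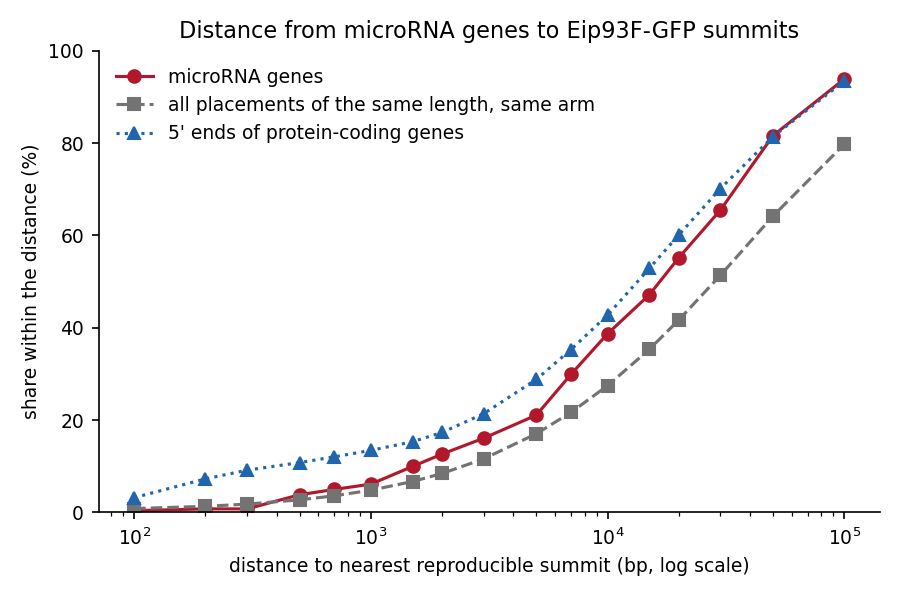
Cumulative share of genes or positions (y axis, %) whose nearest reproducible summit lies within the distance on the x axis (bp, log scale), for 261 microRNA genes, for all placements of intervals of the same lengths on the same arms and for the 5′ ends of protein-coding genes. The microRNA line stays near the placements up to 1 kb (6.13% against 4.82%) and moves towards the protein-coding 5′ ends at greater distances (55.2%, 41.7% and 60.1% at 20 kb).

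Other kinds of gene had summits near them more often. Within 1 kb, a summit was found for 19.9% of protein-coding genes over their whole length and for 13.4% of their 5′ ends, for 16.9% of tRNA genes and for 7.64% of snoRNA and snRNA genes. Within 5 kb the shares were 34.8%, 28.8%, 32.8% and 32.6%. The microRNA genes, at 6.13% and 21.1%, were below all of these, and these differences were not tested because genes of a kind share clusters and neighbours.

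**Figure D2:**
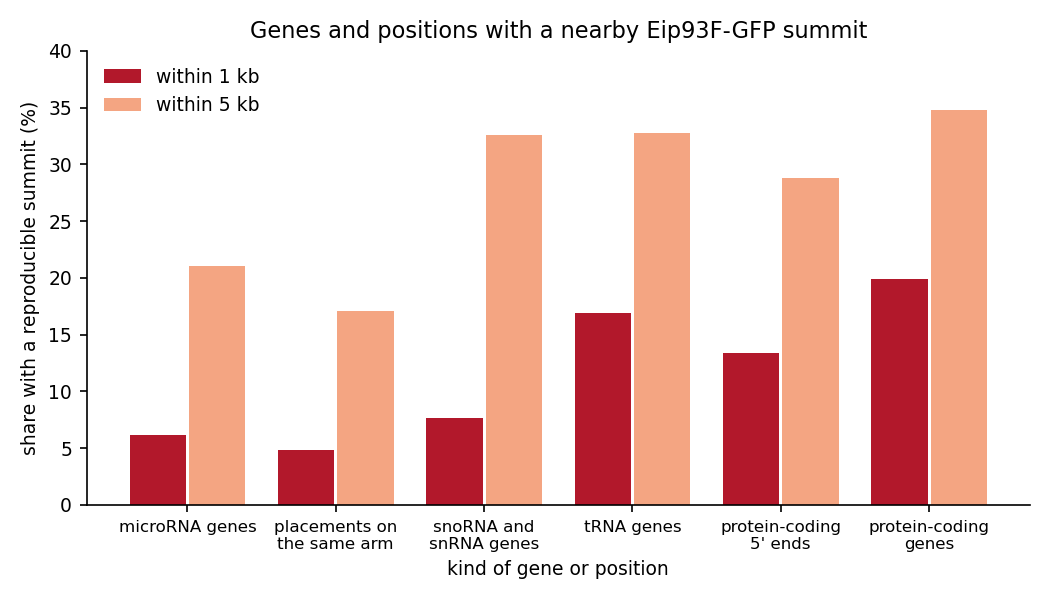
Share of genes or positions (y axis, %, from 0) with a reproducible summit within 1 kb (dark bars) and within 5 kb (light bars), by kind of gene (x axis). MicroRNA genes stand at 6.13% and 21.1%, next to placements on the same arm at 4.82% and 17.0% and below tRNA genes at 16.9% and 32.8%; the bars are exact shares of all genes or placements and carry no error bars.

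By arm the counts were small, and differences between arms were not tested. On 2L, 6 of 57 microRNA genes had a summit within 1 kb where position gave 3.13, and on X 5 of 58 where it gave 2.71. On 2R the count was 3 of 55 against 2.56, on 3L 1 of 31 against 1.51, and on 3R 1 of 58 against 2.64. Within 5 kb the largest gap was on 2R, with 16 of 55 genes against 9.25, and 7 of those 16 are the mir-310 cluster, which shares a single summit. X had 8 of 58 genes (13.8%) within 5 kb against 9.57 (16.5%). By locus it had 8 of 39 (20.5%), for which no share from position was computed. Neither microRNA gene on chromosome 4 had a summit within 5 kb.

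No summit lay inside a hairpin. Of the 15 hairpins with a summit within 1 kb, the nearest was upstream of 7 and downstream of 8. Of the 54 within 5 kb, it was upstream of 30 and downstream of 24. Counted by locus, 27 loci held a hairpin with its nearest summit upstream and 15 one with it downstream, among 41 loci, so a locus can count on both sides, as that of mir-317, mir-277 and mir-34 does. The closest was 158 bp upstream of mir-9370, and the hairpins nearest the 1 kb limit were mir-2a-1 at 868 bp inside it and mir-34 at 1008 bp outside it. In all, 206 microRNA genes had no summit within 5 kb, 27 had 1, 17 had 2, and 11 had 3 to 6.

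The reproducible summits within let-7-C lay in its long first intron, none within 500 bp of its start and none at the hairpins. The peak around the first summit begins nearer to the start, at 18456163. The transcript runs on 2L from 18455717 to 18473132 on the forward strand, and 5 reproducible summits lay in that intron, 0.651, 1.589, 8.018, 9.779 and 10.484 kb from the start. A transcript as long as this had a summit inside it or within 1 kb at 29.0% of the placements on its arm. The first summit had a signal of 74.96 in replicate 1 (rank 1595) and 63.1 in replicate 2 (rank 1741). The second had 47.9 (rank 3817) and 84.4 (rank 877), and was the least alike in the replicates. The third had 85.9 (rank 1218) and 52.1 (rank 2640). All 5 were found in both replicates, at ranks between 841 and 3817 and in no common order. The fourth, the strongest in the reproducible set with a signal of 168, had 78.7 (rank 1431) and 85.6 (rank 841). The last, whose sequence holds GATAAG, had 53.1 (rank 3133) and 56.9 (rank 2184).

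The nearest of these to the start of let-7-C was 651 bp away, past the 500 bp used here for a start site. The hairpins lie in the second exon, between 15.152 and 16.78 kb from the start. They were 5233 bp (mir-100), 5458 bp (let-7) and 5145 bp (mir-125) from the nearest summit, so none of the 3 counts at 5 kb. For mir-100 the nearest was the last intron summit. For let-7 and mir-125 it was a downstream summit past the end of let-7-C, described below. The pooled list, which includes background, held 14 further entries of lower signal in the transcript, 3 entries within 1 kb of the hairpins among them, the highest at a signal of 34.5. A sixth reproducible summit lay 4437 bp past the end of let-7-C in an intron of the next gene, CG10283, with signals of 57.2 (rank 2754) and 51.6 (rank 2699).

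**Figure D3:**
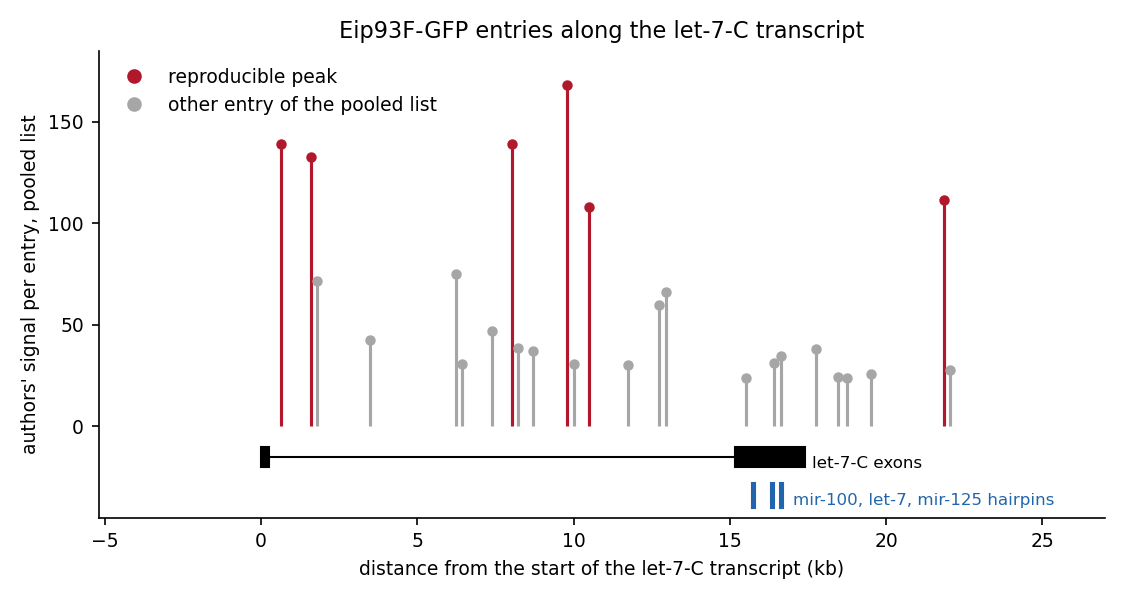
Authors' signal (y axis) of every entry of the pooled list from 5 kb before to 5 kb past let-7-C, by distance from the start of the transcript (x axis, kb); red marks the reproducible peaks, black boxes the exons and blue boxes the 3 hairpins. The 5 reproducible peaks of the transcript stand between 0.651 and 10.484 kb, all in the first intron, and within 1 kb of the hairpins there are only entries of signal 34.5 or less.

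The highest signal near any microRNA gene was at the start of CR31044, a long non-coding RNA whose exon holds mir-279 and mir-996, which prevent CO2-sensing neurons from forming in the maxillary palps. This peak ranked 16 in replicate 1 with a signal of 528 and 15 in replicate 2 with 411, and its signal in the reproducible set was 934. Its summit lay 127 bp upstream of the start, 1150 bp from mir-279 and 2749 bp from mir-996. A weaker summit in the transcript, 425 bp upstream of mir-279, had signals of 70.0 (rank 1841) and 64.4 (rank 1667). The replicates thus placed both peaks alike.

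Other primary transcripts of microRNAs had a strong peak upstream of the hairpin or at the start. The peak nearest to mir-9a, which limits sensory organ precursors through the transcription factor senseless, ranked 57 in replicate 1 with a signal of 297 and 44 in replicate 2 with 258. It lay 4318 bp upstream of the hairpin, 1823 bp before the start of its host CR45916 and 377 bp from a start of another non-coding RNA, CR44676. The peak at a start of CR46006, the host of mir-276a, had signals of 198 (rank 181) and 142 (rank 221) and lay 1381 bp upstream of the hairpin, on 3L at 10365228 to 10365325. The mir-276b hairpin, of the same seed and in the neighbouring transcript CR46004, had no summit within 5 kb.

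mir-282 had 6 summits within 5 kb, the most of any hairpin. The strongest, 4532 bp upstream and outside any gene, ranked 72 in replicate 1 (signal 271) and 42 in replicate 2 (signal 260). The second, 3359 bp upstream, had 238 (rank 102) and 170 (rank 130) and lay by the start of CG43389. The nearest, in the exon 343 bp downstream of the hairpin, had 98.5 (rank 881) and 126 (rank 304). Another, 41 bp from a start of its host CR43626, stood at rank 8721 in replicate 1 and 1367 in replicate 2, so that peak rests mainly on 1 replicate. A further summit, 120 bp from a start of CR43626 and 1552 bp upstream of the hairpin, had 87.5 (rank 1169) and 67.3 (rank 1511). bantam, the growth-promoting microRNA that represses the death gene hid, had a summit 1470 bp upstream in an exon of its host CR43334, with signals of 130 (rank 495) and 59.8 (rank 1945). A second summit 2021 bp downstream of it had 69.0 (rank 1897) and 53.6 (rank 2479), and both bantam peaks were higher in rank in replicate 1.

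**Figure D4:**
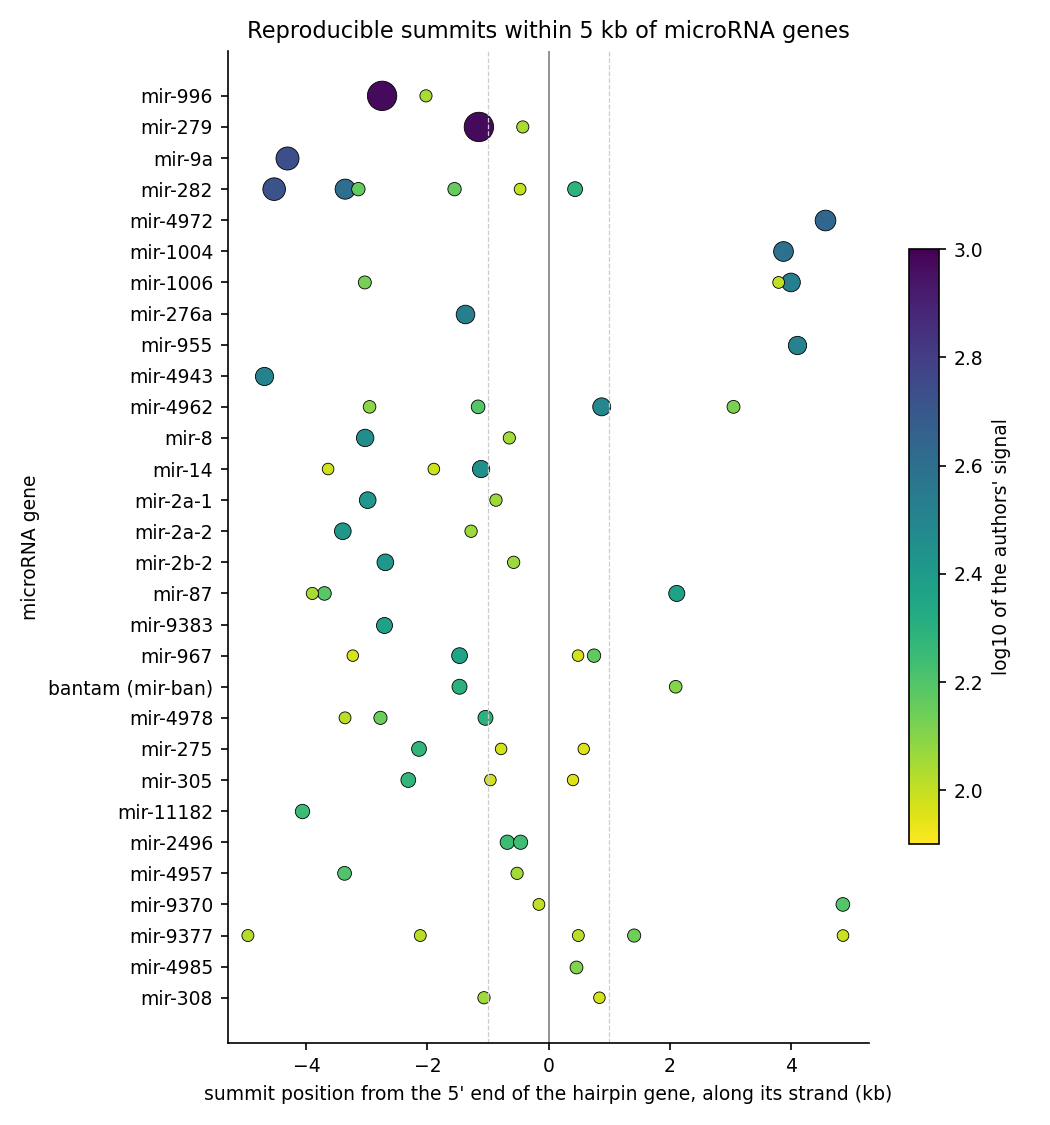
Position of every reproducible summit within 5 kb (x axis, kb from the 5′ end of the hairpin gene along its strand; dashed lines at 1 kb) for the hairpins with a summit within 1 kb and the 15 with the strongest peak within 5 kb only; colour and size give the authors' signal. The strongest peaks, those of mir-279 with mir-996 (934), mir-9a (550) and mir-282 (528), all lie upstream of the hairpin. The next strongest, that of mir-4972 (433), lies downstream.

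Of the 6 annotated microRNA genes placed in the group of hormone response and timing, 5 had a summit within 5 kb and 1 within 1 kb, and the median distance was 1316 bp against 16928 bp over all microRNA genes. The background for such a count is the 21.1% of all microRNA genes, and the group was chosen with earlier results of these data known. The 6 genes form 5 loci, of which 4 had a summit within 5 kb. mir-14, which represses the ecdysone receptor and cell death, had 3 summits, all upstream. The strongest, 196 bp before the start of its host CR43651, had a signal of 216 in replicate 1 (rank 147) and 63.1 in replicate 2 (rank 1749), a wide gap between the replicates. mir-8, which acts in fat body growth, had a summit 96 bp past the inner of the 2 starts of its host CR43650. It lay 647 bp upstream of the hairpin, with signals of 59.4 (rank 2553) and 55.6 (rank 2284). A stronger summit 3029 bp upstream of mir-8, outside any gene and 692 bp from the outer start of CR43650, had 168 (rank 280) and 124 (rank 325). The adjacent mir-281-1 and mir-281-2 lie in Oda, which encodes an inhibitor of polyamine synthesis, and shared 2 summits. The nearer, 1737 and 1517 bp downstream, lay 148 bp from a start of Oda and 95 bp from one of SmD3, with signals of 62.8 (rank 2294) and 55.8 (rank 2270). This start of Oda lies downstream of both hairpins, so its transcript does not contain them. The other summit, 3179 and 3397 bp upstream, had 65.6 (rank 2095) and 73.3 (rank 1227).

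mir-34, which acts in ageing and represses the ecdysone-induced gene Eip74EF, lies in the exon of CR43459 together with mir-277, a regulator of branched-chain amino acid breakdown. A summit in that exon had signals of 68.6 (rank 1923) and 66.6 (rank 1545), 2990 bp upstream of mir-34. A second, in an exon of Fmr1 1008 bp downstream of mir-34, had 56.8 (rank 2783) and 69.4 (rank 1407). The neighbouring mir-317 had 2 summits upstream, the nearer at 1762 bp with 71.8 (rank 1748) and 71.6 (rank 1294). No summit of this locus lay within 500 bp of the start of CR43459, the nearest being 4185 bp inside it. The sixth member of the group, mir-252, was 63145 bp from the nearest summit.

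Of the 17 genes placed in growth and cell death, 6 had a summit within 5 kb and 3 within 1 kb, beside 21.1% and 6.13% of all microRNA genes. They form 11 loci, of which 4 had a summit within 5 kb. The mir-2 family represses the pro-apoptotic genes reaper, grim and sickle. Its members mir-2a-1, mir-2a-2 and mir-2b-2 lie in an intron of spi, which encodes the EGF receptor ligand Spitz, and share 2 summits. The one at a start of spi had signals of 154 (rank 351) and 95.8 (rank 639), and the one in the intron, which holds GATAAG, had 72.7 (rank 1709) and 47.4 (rank 3167). The intron summit lay 576 bp from mir-2b-2, 868 bp from mir-2a-1 and 1279 bp from mir-2a-2, so the 1 kb limit divides a cluster with a common peak. mir-308, of the same seed and in an intron of the ribosomal protein gene RpS23, had a summit 779 bp downstream at rank 2005 in replicate 1 and 8661 in replicate 2, and another at the start of RpS23 that no entry of replicate 1 held. For mir-11 and mir-998, in an intron of the cell cycle regulator E2f1, the nearest summits were 5408 and 5435 bp away, but a summit lay 1 bp from a start of E2f1 at ranks 429 and 733. Likewise mir-2b-1 had none within 5 kb, and its host Btk, a tyrosine kinase gene, had a summit 164 bp from a start at ranks 95 and 52.

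mir-275 and mir-305 are neighbours, and mir-305 lies just past the annotated end of CR43857, which holds mir-275. The start of CR43857 had a summit 164 bp before it, with signals of 40.9 (rank 5098) in replicate 1 and 105 (rank 483) in replicate 2. A summit 783 bp upstream of mir-275 had 88.3 (rank 772) in replicate 2 and lay in no entry of replicate 1. The third, 333 bp downstream of mir-305 and 489 bp from a start of muc, had 43.8 (rank 4527) and 47.5 (rank 3155). All 3 peaks at this locus were higher in rank in replicate 2.

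The groups with no summit within 5 kb were muscle and Hox, the early embryo cluster and the testis clusters. In the first, the 5 genes lay at a median distance of 58340 bp. They were mir-1, the muscle microRNA, at 58340 bp, mir-10 at 46273 bp, mir-iab-4 and mir-iab-8, which act on Hox genes of the bithorax complex, both at 130252 bp, and mir-993 at 13100 bp. The 10 genes of the early embryo group, which includes the mir-309 cluster that clears maternal messenger RNA, form 2 loci. Their median was 28931 bp, with mir-309 at 29556 bp, mir-318 at 17292 bp and mir-994 at 17127 bp, and mir-3, mir-4, mir-5, mir-286 and the 3 copies of mir-6 in the same transcript as mir-309. The 19 genes of the testis clusters form 3 loci and lay at a median of 45369 bp. Most microRNA genes, 206 of 261, likewise had no summit within 5 kb, and these few loci are read against that share. In the sensory and neural group, 4 of 11 genes had a summit within 5 kb, namely mir-9a, mir-279, mir-996 and mir-305. The 11 genes form 7 loci, of which 3 had one. The median of that group was 7666 bp, and mir-124, the neuronal microRNA, was at 85230 bp.

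Hosts were then considered, since a hairpin inside another gene on the same strand can share a start with it. Of the 260 hairpins, 136 lay in a protein-coding host, 46 in a non-coding host only, 27 in a gene of the opposite strand only and 51 in no gene. Within 5 kb a summit was found for 27 of the 136 where position gave 23.2, for 11 of the 46 where it gave 7.91, for 3 of the 27 where it gave 4.68, and for 13 of the 51 where it gave 8.34. Within 1 kb the counts were 8 against 6.46, 4 against 2.20, 1 against 1.31 and 2 against 2.33. Hairpins with no containing gene include the mir-310 cluster of 7, whose 1 summit lies 430 bp from a start of qsm and had signals of 62.4 (rank 2332) and 33.9 (rank 5765).

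At the hosts themselves, a summit lay within 500 bp of a start site of 7 of 37 non-coding hosts (18.9%), beside 5.76% of all long non-coding and antisense RNA genes. The same was true of 29 of 128 protein-coding hosts (22.7%), beside 12.7% of all protein-coding genes. Hosts have up to 8 start sites each, and length and start number were not matched. Any start site counted, also one downstream of the hairpin, whose transcript does not contain the hairpin. Hosts where the start nearest to a summit was such a one included for (mir-4972), CG5953 (mir-4943), Oda (mir-281-1 and mir-281-2) and CG7029 (mir-4953). CG5953 also had a summit 315 bp from its other start, which lies upstream of mir-4943. How many hosts were counted only through such starts was not determined. The 7 non-coding hosts were CR31044 (mir-279 and mir-996), CR46006 (mir-276a), CR43651 (mir-14), CR43650 (mir-8), CR43857 (mir-275), CR43626 (mir-282) and the heat-shock RNA Hsromega (mir-4951, ranks 3442 and 1684). Of the 34 hairpins in protein-coding hosts with such a summit, 16 had none within 5 kb of the hairpin, against 1 of 8 in non-coding hosts. Distance from the hairpin alone therefore missed these start-site peaks. mir-33, in an intron of the lipid regulator SREBP with which it has a conserved association, is one that both measures found, with a summit 84 bp from the start of SREBP at ranks 2360 and 2109.

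Of the remaining hairpins with a summit within 1 kb, most lay in protein-coding hosts. mir-4962 lies in an intron of Tlk, a kinase gene with 14 summits in it, and its summit 756 bp downstream, with signals of 178 (rank 253) and 134 (rank 254), had the highest signal within 1 kb of any microRNA gene. mir-967 lies in an intron of bun, the fly TSC22 gene, with 16 summits. The nearest, at 392 bp, had 21.4 (rank 13998) in replicate 1 against 67.3 (rank 1510) in replicate 2, the lowest rank in replicate 1 among the peaks near microRNA genes. The next, at 656 bp, had 76.3 (rank 1536) and 81.5 (rank 955), so mir-967 does not rest on the former. mir-9377 lies in an intron of Tis11, which encodes an mRNA decay factor, and its nearest summit at 442 bp had 76.3 (rank 1537) and 36.5 (rank 5093).

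mir-4985, in an intron of Fatp3, a fatty acid transport gene, had a summit 360 bp downstream with 63.2 (rank 2266) and 77.2 (rank 1085). mir-9370, in an exon of Amun, had one 158 bp upstream with 65.6 (rank 2100) and 35.0 (rank 5468). mir-4957, opposite in strand to the topoisomerase gene Top1, had one 519 bp away and 187 bp from a start of Top1 with 62.5 (rank 2320) and 72.8 (rank 1251). Each of these 3 stood outside the leading 1000 entries of both replicates. mir-2496, in no gene, had 2 summits at 461 and 681 bp, by starts of CR45478 and PIG-K, the nearer with 82.7 (rank 1292) and 72.0 (rank 1283).

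Among hairpins with a summit within 5 kb only, some had their strongest peak at another gene. The peak by mir-1004 lay 210 bp from a start of bowl, a zinc finger gene, with signals of 237 (rank 105) and 150 (rank 192), while mir-1004 itself lies in an intron of CG43707. The strongest peak by mir-1006, which lies in an intron of VhaSFD, was in an intron of the cytochrome c gene Cyt-c-p, 920 bp from its start, and had 229 (rank 118) and 109 (rank 441). The summit nearest to mir-1006, 3034 bp upstream, was a weaker one 66 bp from the start of its host VhaSFD, with 52.3 (rank 3221) and 82.9 (rank 916). The peak by mir-955, in no gene, lay 55 bp from a start of CG14968 with 196 (rank 190) and 134 (rank 253). In these 3 cases the strongest peak was at a neighbour, 2 of them at a start site. The peak by mir-4972 lay 352 bp from a start of its host for, the cGMP-dependent kinase gene, with 282 (rank 67) and 154 (rank 179). That start lies downstream of the hairpin, so its transcript does not contain mir-4972. The peaks by mir-4943 (ranks 186 and 288) and mir-9383 (ranks 557 and 510) lay by starts of their hosts CG5953 and CG12241, upstream of the hairpins. mir-87 (ranks 1188 and 191), mir-4978 (ranks 837 and 954) and mir-11182 (ranks 1339 and 928) lay in no gene on their own strand.

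The 85 different summits within 5 kb of microRNA genes had signals from 90.5 to 934 with a median of 135, close to the median of 129 over all 3401. Of the 85, 13 (15.3%) were among the 300 strongest, which make up 8.82% of the set, and 49 (57.6%) were among the stronger 1700. The 22 summits within 1 kb were lower, with signals of 90.5 to 311, a median of 114 and 1 among the 300 strongest. Promoters, meaning within 500 bp of any start site, held 41 of the 85 (48.2%, 46.9% of all summits), exons 9 (10.6%, 3.20%), introns 27 (31.8%, 39.1%) and intergenic sequence 8 (9.41%, 10.8%). By relation to the microRNA, 22 lay at a start site of a host, 19 at a start site of other genes only, 22 inside a host away from start sites and 22 elsewhere. An entry of both replicates' full lists held 82 of the 85, and 59 were among the 3401 leading entries of each.

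**Figure D5:**
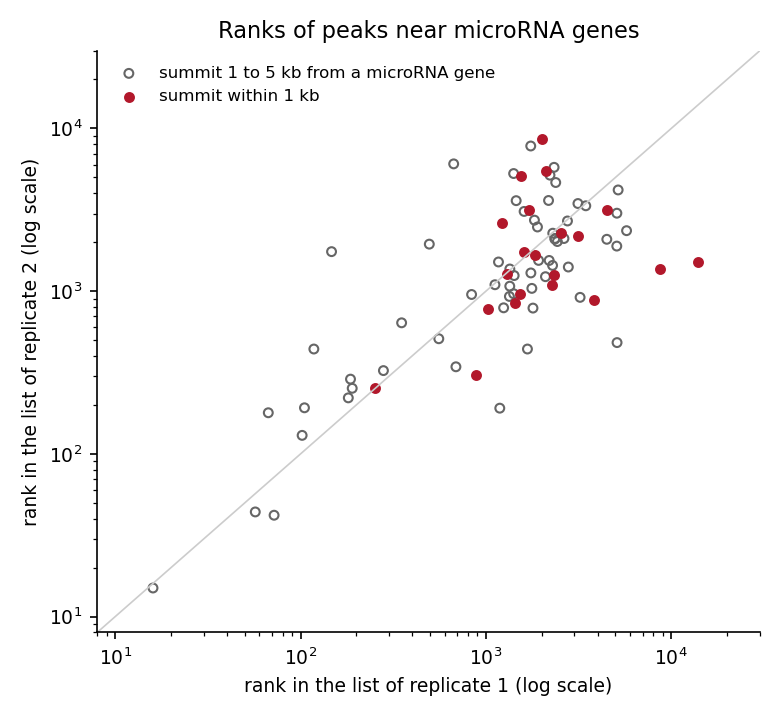
Rank in the list of replicate 1 (x axis, log scale) against rank in the list of replicate 2 (y axis, log scale) for the 82 summits within 5 kb of a microRNA gene that both lists hold; red marks summits within 1 kb, open circles the others and the line equal ranks. Ranks run from 16 to 13998 in replicate 1 and from 15 to 8661 in replicate 2; where 2 summits lie in 1 entry of a replicate they share its rank.

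Each replicate taken alone gave similar counts. The 3401 leading entries of replicate 1 placed a summit within 1 kb of 21 microRNA genes and those of replicate 2 of 15, where position gave 12.5 in both. Within 5 kb the counts were 63 and 58, where position gave 45.1 and 43.9. The 2 lists had 13 genes in common within 1 kb, 11 of them also in the reproducible count, and the other 2 were mir-4978 and mir-277. Within 5 kb they shared 46, with 42 in the reproducible count. Within 5 kb mir-4941, in a coding exon of Notum, was the only gene that the reproducible set gave and neither leading list did.

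Sequence words near the summits were counted on both strands within 50 bp. Of the 85 summits, 8 (9.41%) held GATAAG against 10.03% of all 3401 summits, and 15 (17.6%, Wilson interval 11.0 to 27.1%) held GAGAG, the word of the GAGA factor, against 11.9%. CACGTG, an E-box, was at 2.35% against 1.00%, TATCGATA, the DREF word, at 1.18% against 0.647%, and TGANTCA, the AP-1 word, at 3.53% against 2.53%. Of the 22 summits within 1 kb, 5 held GATAAG and 6 held GAGAG, so 5 of the 8 summits with GATAAG were among these 22. Over the 85, the interval of each word includes the share over all summits. A match is a description of the sequence and shows no bound factor.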

How the data were processed

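Chromatin immunoprecipitation of Eip93F-GFP was sequenced in 2 replicates. Per the notes deposited with the files, the authors called peaks on dm6 in each replicate and in both pooled against a control, and kept a reproducible set by the irreproducible discovery rate. Each peak's signal and −log10 q-value are the authors' own, and a further deposited column gives the summit as an offset from the peak start. The aligner and caller were not given in the sources used here. Summit positions, ranks by signal, distances, shares of placements and words were computed with Python 3.11.15, numpy 2.4.6, pandas 2.3.3 and scipy 1.17.1, and the placement count was checked on simulated data. Genes came from Ensembl release 115 without transposable elements, and let-7 and let-7-C were matched through RefSeq synonyms. All 261 microRNA genes on the arms had the same coordinates in RefSeq, whose 481 mature products were read from the dm6 genome.

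A summit was assigned the rank and signal of the replicate entry that holds it. A host is another gene containing the whole hairpin on its strand. No test was made, since there was 1 group. Named were the let-7 complex, every gene with a summit within 1 kb, the 15 with the strongest peak within 5 kb only, and members without a summit in groups of up to 10; other names were added as members of the role groups or as hosts, after their values were seen. The microRNA genes, groups and words were chosen with earlier results of these data known. The alternatives tried were other peak sets, distances, reference points, counting units and windows. The lists on dm3 were not used here. Depth is unknown, and intervals cover counting error only.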

Additional observations from a re-analysis of the deposited data

How the results depend on the processing

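Of 29 recomputed values, 20 stayed within 1.5 times the reported count or within its interval and 9 did not. Of the 9, 8 are counts whose size is set by construction, since fewer or more peaks, genes or bases are counted, and each is given with the count from position. Within 1 kb, 16 genes became 6 (position 6.70) with the stronger 1700 peaks, 48 (31.8) with the leading 10000 pooled entries, 4 (3.93) without members in a same-strand host, 10 (7.11) at 500 bp and 33 (22.0) at 2 kb. Within 5 kb, 55 became 114 (88.1) with the 10000 entries, 17 (13.4) without hosted members and 101 (71.7) at 10 kb. With the stronger 1700 peaks alone 41 genes were within 5 kb (26.5). Leaving out a replicate gave 15 to 21 genes within 1 kb and 58 to 63 within 5 kb. GAGAG rose to 36.5% in a window of 100 bp, beside 27.3% of all summits. Within 1 kb the count was thus not above position with the stronger peaks and barely so without hosted members, and the cause was not tested. The lists give no depth, so a weak site that is missing from them cannot be told from an absent one.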
